A study of Homo sapiens with 16 samples.

Results

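The proteins of the large ribosomal subunit were followed as 45 genes, RPL3 to RPL41 with RPLP0, RPLP1 and RPLP2. They were chosen by symbol from a list and not by a cut on a measured value, though with earlier results of these data known. All 45 were among the 26485 genes listed for total RNA, and 41 of them were among the 13804 genes with at least 1 read in any footprint library. The cells were MDA-MB-231, an established line from a human breast cancer without hormone receptors, labelled by the submitters as a xenograft cell line and grown in dishes without treatment. Ribosome footprints (short mRNA fragments protected by a ribosome during nuclease digestion) and total RNA were sequenced in 4 conditions with 2 libraries each, 16 libraries in all. In the double modulation the cells carried a CRISPR interference (CRISPRi) guide against Ile GAU, a transfer RNA for isoleucine, together with a construct for tRNAIleUAU. The knockdown had the Ile GAU guide with the control construct, and the overexpression had the eGFP guide with the tRNAIleUAU construct. The control had the eGFP guide with the control construct. All 4 conditions thus carried a CRISPRi guide and a construct, and the labels name no clone, promoter or separate culture for either.

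The large subunit joins amino acids at its peptidyl transferase centre and releases the growing chain through an exit tunnel. RPL5 and RPL11 enter it with the 5S ribosomal RNA, and the P stalk, built from RPLP0, RPLP1 and RPLP2 beside RPL12, recruits the GTPases of translation. The mRNAs of these proteins are classical TOP mRNAs: they begin with a terminal oligopyrimidine tract, through which mTOR signalling controls how many of them are on ribosomes.

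That tract was present in the start regions of these genes. RefSeq (GRCh38.p14) gave a promoter for 38 of the 45 genes, from 250 bases before the start to 50 after. A tract was counted where a C followed by at least 4 pyrimidines opened within 5 bases of the start. It was found in 33 of the 38 genes (86.8%), against 28% of the 15843 protein-coding genes. It opened at the start base itself in 28 (73.7%), against 6.24%. RPL6, RPL9, RPL15, RPL17 and RPL27 had none within that window. Searched on both strands over the whole promoter, the ETS core CCGGAAG was in 34.2% of these genes against 16.5% of all, the YY1 core AAGATGG in 13.2% against 7.90%, the GC box GGGCGG in 55.3% against 64.3% and the TATA box TATAAA in 7.89% against 12.4%. These matches describe letters only. The starts of the 5 genes whose footprints changed are shown with those of RPLP0, RPL35 and RPL14. RPLP0 and RPL35 were picked for a wide and RPL14 for a narrow difference between the total RNA replicates of the double modulation. They read as follows, with 40 bases before the start and 20 from it, and the unbroken pyrimidine run at the start in capitals:
RPL19: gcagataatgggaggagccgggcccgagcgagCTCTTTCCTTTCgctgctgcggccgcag
RPL36: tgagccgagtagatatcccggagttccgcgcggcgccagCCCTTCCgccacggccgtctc
RPL13A: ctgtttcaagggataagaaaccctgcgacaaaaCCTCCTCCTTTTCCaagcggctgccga
RPL24: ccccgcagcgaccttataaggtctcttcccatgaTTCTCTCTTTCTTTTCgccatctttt
RPL7A: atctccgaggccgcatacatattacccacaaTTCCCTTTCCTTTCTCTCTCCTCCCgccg
RPLP0: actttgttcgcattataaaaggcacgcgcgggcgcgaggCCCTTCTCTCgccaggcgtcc
RPL35: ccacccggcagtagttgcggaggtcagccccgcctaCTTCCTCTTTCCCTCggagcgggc
RPL14: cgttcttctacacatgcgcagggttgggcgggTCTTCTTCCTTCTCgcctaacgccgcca
The stretches lie on the plus strand at chr17:39200283-39200342 (RPL19), chr19:5690255-5690314 (RPL36), chr19:49487568-49487627 (RPL13A), chr9:133348178-133348237 (RPL7A) and chr3:40457299-40457358 (RPL14). They lie on the minus strand at chr3:101686699-101686758 (RPL24), chr12:120201092-120201151 (RPLP0) and chr9:124861938-124861997 (RPL35). RefSeq gives RPL19 a pair of starts, and the one shown, with a tract opening nearest to it, lies 40 bases downstream of the outer one; a gene with several starts was counted where any start had the tract or motif. The run was 25 bases long in RPL7A and 7 in RPL36. It was 10 bases in RPLP0, 12 in RPL19, 14 in RPL13A and RPL14, 15 in RPL35 and 16 in RPL24. Whether run length goes with the total RNA results was not tested.

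A footprint library had 358340 to 938909 counts assigned to genes, and a total RNA library 2512247 to 5446599. The 6 markers expected in this line, VIM among them, summed to 15900 to 18500 CPM (the count of a gene scaled to a common total of gene counts per library) in footprints and 4620 to 5010 CPM in total RNA. The 4 markers expected to be low summed to at most 14.0 CPM in any library. GATA3 was counted in every library, at 4.93 to 14.0 CPM in footprints, while ESR1 reached at most 0.184 CPM and CDH1 1.71 CPM. Fibroblast, immune and endothelial lists reached at most 27.9, 21.2 and 14.3 CPM, with DCN, CD3E and CDH5 at 0 in all 16 libraries. Other genes of these lists were low but counted in every footprint library. These were COL1A1 (6.58 to 15.6 CPM), PDGFRB (3.3 to 14.0 CPM), CD14 (1.71 to 16.7 CPM) and KDR (1.18 to 8.46 CPM). These are libraries of whole cultures, in which fewer cells of a type and less RNA per cell cannot be told apart.

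Several large subunit genes that were plentiful in total RNA had next to no counted footprints. Of all alignments, 97.0 to 98.8% were to several places and were not counted, and RefSeq names 1256 pseudogenes after these 45 genes. In footprints 37 of the 45 genes passed the filter on low counts, and 8 did not. RPL22, an RNA-binding protein with a paralog, RPL22L1, had 175 to 206 CPM in total RNA but 0 to 3.30 CPM in footprints. RPL9 had 223 to 365 CPM in total RNA and 1 footprint read in all, and RPL7 had 135 to 187 CPM and 1 footprint read in all. RPL21 had 73.4 to 173 CPM and RPL41 27.6 to 58.9 CPM in total RNA, both with 0 footprint reads. RPL36A reached 22.5 CPM in total RNA, RPL17 5.05 and RPL39 1.09, and their footprints reached 4 reads per library for RPL36A and 0 for the other two. RPL39 was the only one of the 45 that also failed in total RNA, so 44 were tested there. The 8 genes had a median of 46 named pseudogenes (7 to 137) and the 37 genes a median of 13 (5 to 95), with ranges that overlapped widely. Whether reads shared with pseudogenes account for the missing footprints was not tested. Levels are not per transcript length, so they are compared within a gene and not between genes.

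Summed over the 45 genes, large subunit footprints took about the same share of the library in every condition, while the total RNA share differed most between replicates of 1 condition. The footprint sum was 12517 and 11706 CPM in the double modulation, 10852 and 11657 in the knockdown and 11726 and 12204 in the overexpression, against 12576 and 12080 in control. Both knockdown libraries lay below all 6 others, and the double modulation and the overexpression overlapped control. Without RPL8, the member with most footprints, double modulation replicate 2 had 10538 CPM and knockdown replicate 2 had 10582 CPM, so that this order did not hold. In total RNA the sum was 14106 and 7767 CPM in the double modulation, 9920 and 9154 in the knockdown and 6996 and 8507 in the overexpression, against 9307 and 8687 in control. The double modulation held both the highest value and the second lowest. No test was made on these sums. Single genes spread more. In footprints the ratio of the highest to the lowest of the 8 libraries was smallest for RPL35A, at 495 to 575 CPM, and next for RPL18, at 803 to 949 CPM. The ratio was largest for RPL29, at 6.86 to 41.1 CPM, followed by RPL7A, at 98.9 to 250.3 CPM. In total RNA, among members with a mean above 10 CPM, RPL22 (175 to 206 CPM), RPL15 (309 to 375.5 CPM) and RPL19 (428 to 526 CPM) had the smallest ratio and RPL35 (39.6 to 319 CPM) the largest.

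**Figure D1:**
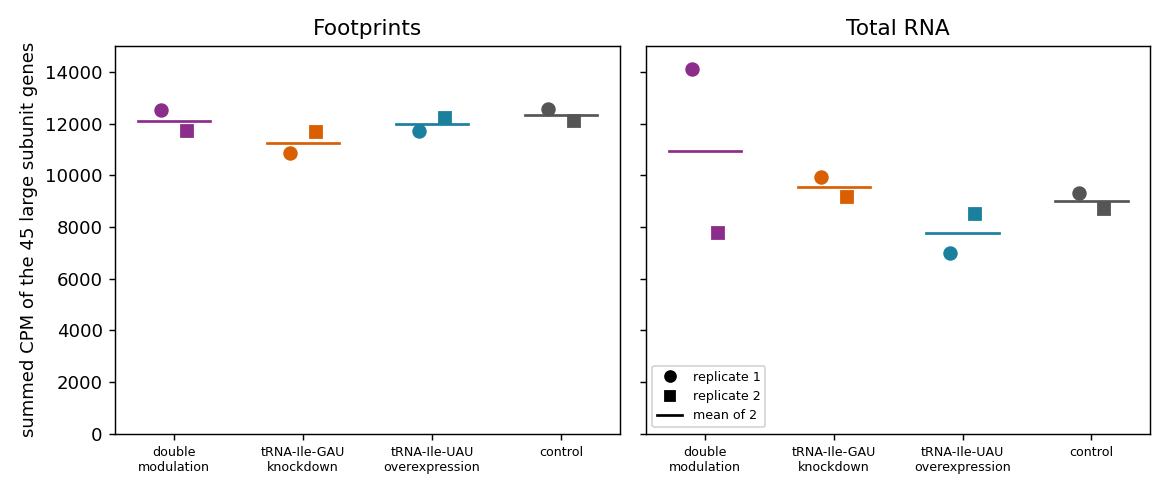
Summed CPM of the 45 large subunit genes (y axis) in footprints (left) and total RNA (right), for the double modulation, the knockdown, the overexpression and control, with 1 point per library and a line at the mean of 2. Footprint sums lie between 10852 and 12576 CPM, while the total RNA sums of the double modulation are 14106 and 7767 CPM.

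In the double modulation against control, footprints of RPL19 and RPL36 fell, and 0 large subunit genes rose. By edgeR's quasi-likelihood test, 2 of 37 tested members passed an adjusted p of 0.05, where 157 of all 8143 genes did (1.93%). For a list of this size 2 is not far from that share. RPL19, a protein beside the exit tunnel, had 214 and 232 CPM in the double modulation, against 342 and 337 CPM in control. Both double modulation libraries lay below all 6 others, since the knockdown had 366 and 309 CPM and the overexpression 293 and 314 CPM. The fold was 1.55 downward, a log2 fold change of -0.63 ± 0.14 (standard error from the model, n = 2 per group, edgeR adjusted p = 0.00212). Its total RNA did not pass, at 504 and 428 CPM against 480.4 and 430 CPM (log2 0.03 ± 0.11, edgeR adjusted p = 0.966). RPL36, a protein specific to eukaryotic ribosomes, had 374 and 352 CPM, against 431 and 539.6 CPM in control, and all double modulation values were below all control values. Its log2 fold change was -0.43 ± 0.13 (edgeR adjusted p = 0.0381), with 404 and 436 CPM in the knockdown and 430 and 374 CPM in the overexpression. The RPL36 call was lost by DESeq2 (adjusted p = 0.139), with TMM scaling off (0.0523), with no filter on low counts (0.0577) and without any of 5 single libraries, with the highest adjusted p, 0.680, without control replicate 2. RPL19 held under DESeq2 but lost the call without either control replicate or without double modulation replicate 1, at an adjusted p of at most 0.0690.

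Across the 37 members the double modulation gave a median footprint log2 fold change of -0.03, with 17 higher and 20 lower, where 50.9% of all genes were higher. The members with the highest values were RPL7A (0.53 ± 0.17, edgeR adjusted p = 0.0924), RPL12 (0.42 ± 0.31) and RPLP0 (0.40 ± 0.16), and none of these passed. RPL34 (-0.50 ± 0.19) and RPL24 (-0.49 ± 0.18) had the lowest after RPL19 and did not pass either. At an unadjusted p under 0.05 there were 11 members of 37, against 11.9% of all genes.

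**Figure D2:**
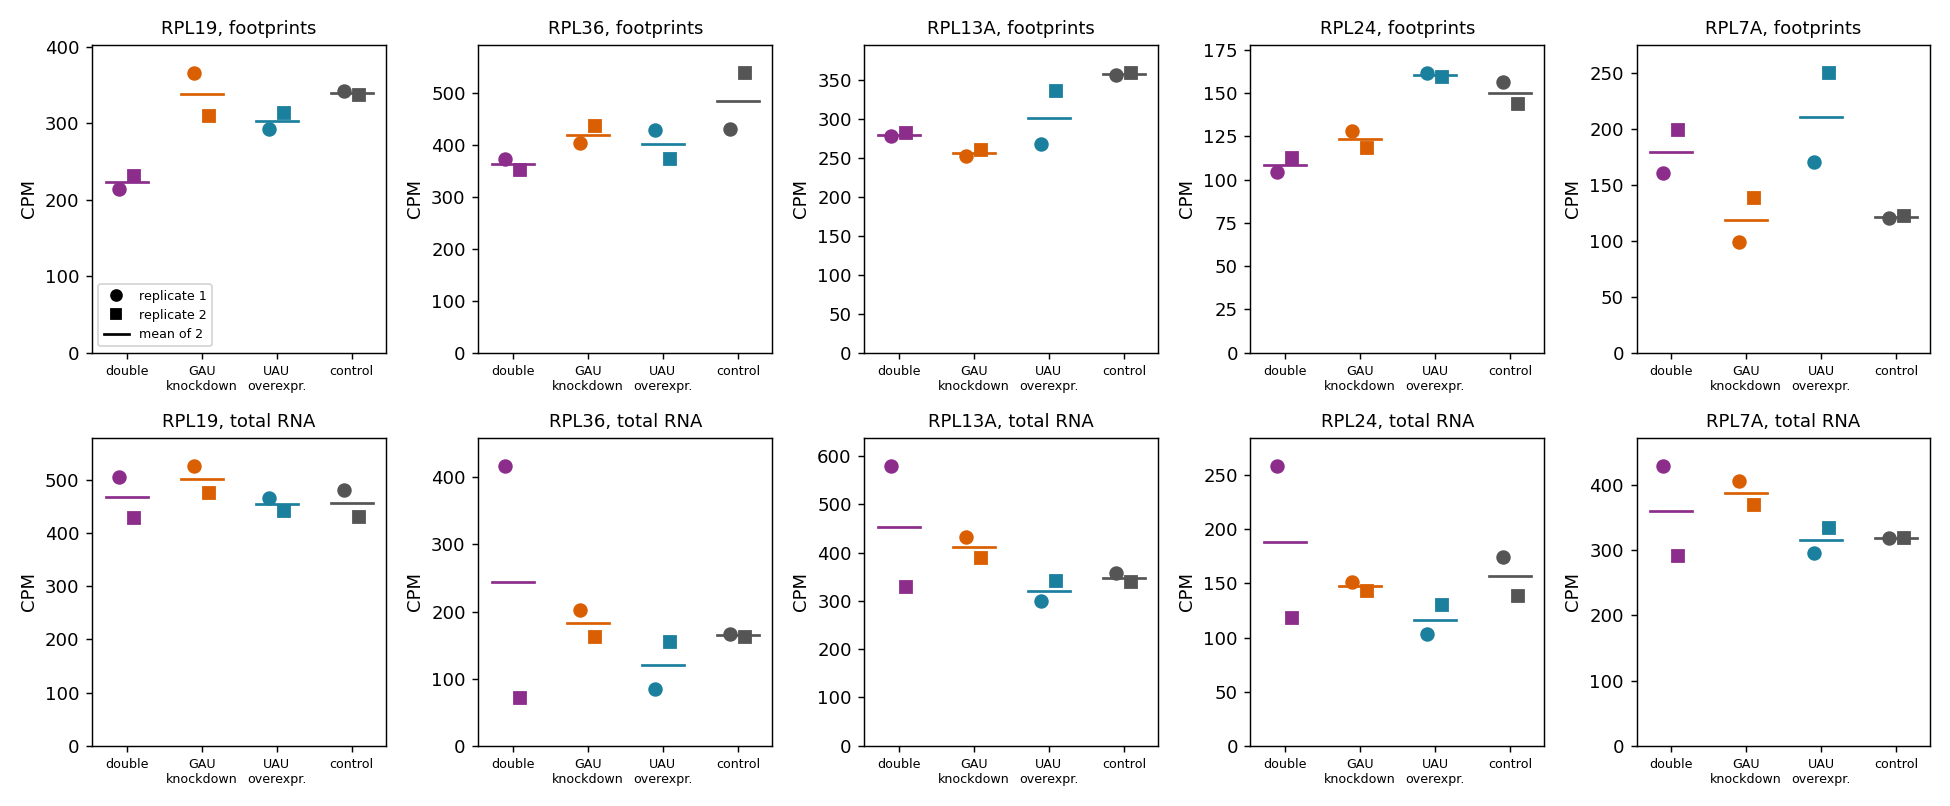
CPM (y axis, from 0) of the 5 members called in footprints, in footprints (top) and total RNA (bottom), for the double modulation (double), the knockdown, the overexpression and control, with 1 point per library and a line at the mean of 2. RPL19 footprints in the double modulation, 214 and 232 CPM, lie below the other 6 libraries, and RPL36 total RNA in the double modulation spans 71.4 to 417 CPM.

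In the knockdown against control, RPL13A was the only member to pass, with lower footprints. It was 1 of 37 members, against 1.11% of all genes, which for a list of this size is not far from that share. RPL13A, which also acts outside the ribosome as a part of an interferon-responsive translational repressor in myeloid cells, had 252 and 259.8 CPM in the knockdown, against 357 and 359.8 CPM in control. The double modulation had 278 and 282 CPM and the overexpression 268 and 336 CPM, so control was above all 6 other libraries. The log2 fold change was -0.50 ± 0.13 (edgeR adjusted p = 0.0325), and in total RNA it was 0.25 ± 0.20 (edgeR adjusted p = 0.956). The footprint call was lost by DESeq2 (adjusted p = 0.0929), without either control or knockdown library and without either overexpression library (at most 0.314). Of the 37 members 28 were lower, with a median of -0.13, where 49.8% of all genes were lower, and 7 members had an unadjusted p under 0.05, against 9.75% of all genes. RPLP1 (-0.55 ± 0.18, edgeR adjusted p = 0.134) and RPL27A (-0.38 ± 0.16) were among the lowest. RPL12 (0.56 ± 0.30), RPL29 (0.23 ± 0.33) and RPL6 (0.23 ± 0.19) were the highest, and none of these 5 passed.

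In the overexpression against control, RPL7A footprints rose, and it was the only member to pass, against 0.0246% of all genes, 2 of 8143. RPL7A, of a family of proteins that bind kinked RNA, had 170.2 and 250.3 CPM in the overexpression, against 120.1 and 122 CPM in control. The double modulation had 161 and 199 CPM and the knockdown 98.9 and 138 CPM, so all 4 libraries with the tRNAIleUAU construct were above all 4 with the control construct. The rise was 1.78-fold (log2 0.83 ± 0.18, edgeR adjusted p = 0.0423). Total RNA gave 296 and 334 CPM, against 319 and 318 CPM in control (log2 -0.0015 ± 0.15, edgeR adjusted p = 0.999). By DESeq2 the footprint call was lost (adjusted p = 1.00), as it was without overexpression replicate 2 (0.970) or either control library. In the other direction RPL29 had the lowest value, -1.62 ± 0.51 on 14.0 and 6.86 CPM, against 19.7 and 39.6 CPM, and did not pass (edgeR adjusted p = 0.490). RPL32 (-0.53 ± 0.17) and RPL10 (-0.36 ± 0.25), which is placed in one of the last steps of subunit maturation, did not pass either. The median of the 37 members was -0.05, with 24 lower against 50.4% of all genes, and 4 had an unadjusted p under 0.05 against 5.02%.

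With both guides pooled, a comparison added after the data were seen, the tRNAIleUAU construct raised RPL7A and lowered RPL19 against the control construct, 2 of 37 members against 0.430% of all genes. RPL7A had a log2 fold change of 0.71 ± 0.12 (edgeR adjusted p = 8.57e-05), and it passed with every library left out but overexpression replicate 2 (adjusted p = 0.280). RPL19 had -0.39 ± 0.10 (edgeR adjusted p = 0.0290) and lost the call by DESeq2 (adjusted p = 0.155) and without any of 6 single libraries, all but knockdown replicate 2 and double modulation replicate 2 (adjusted p up to 0.349). The libraries of the 2 constructs did not overlap for RPL7A and RPLP0, both higher, against 1.58% of all genes, and for RPL6, lower, against 1.74%. RPLP0, the base of the P stalk, had 181 and 213 CPM in the double modulation and 179 and 166 CPM in the overexpression, against 125 and 138 CPM in the knockdown and 145 and 147 CPM in control. Its log2 fold change of 0.40 ± 0.12 did not pass (edgeR adjusted p = 0.151). RPL6 had 80.9 and 89.2 CPM in the double modulation and 80.9 and 78.9 CPM in the overexpression, against 112 and 118 CPM in the knockdown and 100.3 and 94.1 CPM in control (log2 -0.37 ± 0.15, edgeR adjusted p = 0.412). In this comparison 12 members had an unadjusted p under 0.05, against 7.56% of all genes.

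With constructs pooled, RPL24 and RPL13A passed with lower footprints under the Ile GAU guide than under the eGFP guide. They were 2 of 37 members, against 2.68% of all genes, which for a list of this size is not far from that share. RPL24, which forms a bridge to the small subunit, had 104 and 113 CPM in the double modulation and 128 and 118 CPM in the knockdown, against 162 and 159 CPM in the overexpression and 156 and 144 CPM in control. All 4 libraries with the Ile GAU guide lay below all 4 with the eGFP guide. The log2 fold change was -0.44 ± 0.13 (edgeR adjusted p = 0.0295), and that of RPL13A was -0.32 ± 0.10 (edgeR adjusted p = 0.0441). RPL27A and RPL28 also had groups that did not overlap, so that 3 of 37 members were lower without overlap against 3.94% of all genes. RPL28, a protein that budding yeast lacks, had 631 and 599 CPM in the double modulation and 619.5 and 634 CPM in the knockdown, against 776 and 677 CPM in the overexpression and 722 and 736 CPM in control (log2 -0.24 ± 0.08, edgeR adjusted p = 0.105). RPL29 had the highest value, 0.92 ± 0.30 (edgeR adjusted p = 0.0759), ahead of RPL23A and RPL5, both at 0.19. The median of the 37 members was -0.06, with 25 lower against 48.5% of all genes and 8 at an unadjusted p under 0.05 against 13.4%. The eGFP libraries were the shallower ones, with at most 607919 counts against at least 639320. With all footprint libraries thinned to the shallowest RPL13A passed and RPL24 did not (adjusted p = 0.201), and DESeq2 called neither. RPL24 kept the call only without knockdown replicate 1 or double modulation replicate 2 (adjusted p up to 0.161 without another library). RPL13A kept it only without overexpression replicate 1 or double modulation replicate 2 (up to 0.492), and lost it with TMM scaling off (0.0589).

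The effect of the construct with the Ile GAU guide was not found to differ from its effect with the eGFP guide for any member in footprints. By edgeR 0 of 37 members passed this interaction, against 0.0614% of all genes, 6 had an unadjusted p under 0.05, against 5.83%, and DESeq2 called 0. The interaction was 1.36 ± 0.60 for RPL29, 0.64 ± 0.26 for RPLP1 and 0.56 ± 0.23 for RPL32 at the upper end. It was -0.76 ± 0.43 for RPL12, -0.59 ± 0.27 for RPL34 and -0.45 ± 0.20 for RPL19 at the lower end. Of the 37 members 28 were above 0, with a median of 0.17, where 50% of all genes were.

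By role, RPL19 was the one gene called in the double modulation among the exit tunnel, 5S and P stalk lists. RPL36, also called there, was in none of these lists. Of all genes 1.93% passed there, a share that lists this small cannot be set against. For the exit tunnel 6 genes were tested (RPL4, RPL19, RPL23A, RPL26, RPL31 and RPL35) among 9 listed. Their footprint log2 fold changes in the double modulation were split evenly about 0, with a median of -0.01. The 5S proteins RPL5 (0.21 ± 0.14) and RPL11 (0.06 ± 0.12), both of which can also bind the p53 ligase MDM2, did not pass in the double modulation or in any other comparison. Footprints of RPL5 were 316 and 350.4 CPM in the double modulation, 285 and 331 CPM in the knockdown and 265 and 279 CPM in the overexpression, against 314 and 251 CPM in control. RPL11 gave 629 and 555 CPM, 499 and 541 CPM, and 508 and 597 CPM in the same order, against 614 and 512 CPM in control. Both double modulation values of RPL5 were above both control values, narrowly, and every other group of these 2 genes overlapped control. Of the P stalk, all 4 members were above 0 in the double modulation and in the overexpression, and 3 of 4 were below 0 in the knockdown, with 0 of 4 called in each. RPLP1 had 147 and 153 CPM in the double modulation, 94.2 and 96.7 CPM in the knockdown and 137 and 142 CPM in the overexpression, against 158 and 120.5 CPM in control. The knockdown was the lowest group for RPLP1, and for RPLP2 too, with 477 and 472 CPM against 566 and 599 CPM in control (log2 -0.31 ± 0.12).

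In total RNA 0 of 44 members passed in the double modulation, and its 2 replicates were far apart. All genes gave 8 calls, 0.0683%, and 6 members had an unadjusted p under 0.05 against 7.62% of all genes, while DESeq2 called 0. The median log2 fold change was 0.34, with 43 of 44 members above 0 against 55.4% of all genes. RPL35, a docking site for the signal recognition particle at the tunnel exit, had 319 and 39.6 CPM in the double modulation, against 115 and 106 CPM in control. RPLP0 had 421 and 72.4 CPM, against 189 and 141 CPM in control. For both genes replicate 1 was above and replicate 2 below both control libraries. RPL29, a heparin-binding protein, had 118 and 16.6 CPM, against 42.6 and 27.6 CPM in control, and RPL27 had 202 and 31.3 CPM, against 80.4 and 70.5 CPM. RPL5, in contrast, had 874 and 800.0 CPM, against 723 and 715 CPM in control, with both replicates above both control values (log2 0.21 ± 0.09, edgeR adjusted p = 0.637).

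The difference between the 2 double modulation replicates was graded across the members. Replicate 1 was over 2-fold higher than replicate 2 for 19 of 44 members, against 10.5% of all genes, and the median of the members was 0.86 on the log2 scale. The largest were RPL35 (7.55-fold), RPL29 (6.55-fold), RPL27 (6.04-fold), RPL36 (5.5-fold), RPLP0 (5.47-fold) and RPL18 (5.15-fold). RPL14, RPL5 and RPL6 were at most 1.07-fold higher in replicate 1, and RPL15, RPL22 and RPL17 were lower there. In footprints from the same condition the median of the members was 0.06, and RPL35 had 296 and 288 CPM. There 0 of 37 members differed over 2-fold. Of all genes 1.24% were over 2-fold higher in replicate 1 and 0.811% in replicate 2, so 0 is not far from those shares. In total RNA of the overexpression the replicates differed the other way, with replicate 2 higher for 35 of 44 members. It was over 2-fold higher for 3, RPL18, RPL27 and RPL35, against 2.31% of all genes. RPL35 had 45.6 and 108 CPM there, and the median of the members was -0.31. Across the 44 members the differences in these conditions had a Pearson r of -0.85, where all 11720 genes had -0.42. With the replicate difference in the knockdown, which was at most 0.66 on the log2 scale, r was 0.77. These values describe members of shared libraries and are not tests.

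**Figure D3:**
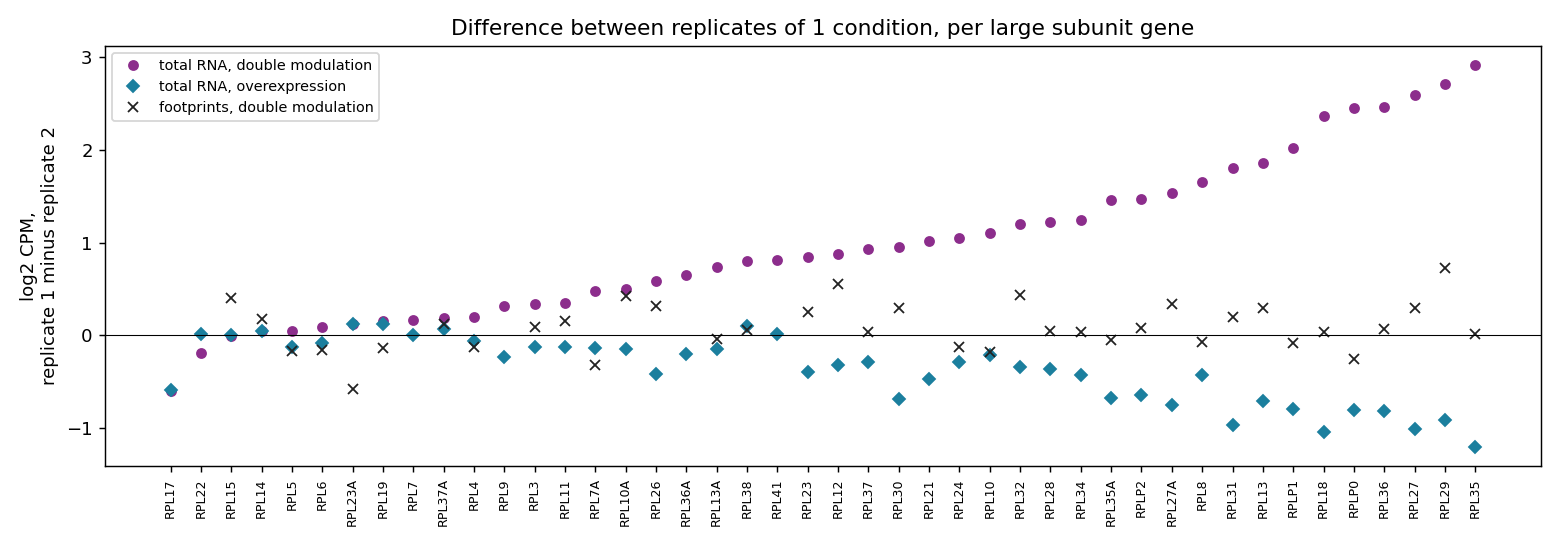
Difference in log2 CPM between replicate 1 and replicate 2 (y axis) for each of the 44 members tested in total RNA (x axis, ordered by the total RNA difference of the double modulation). Total RNA of the double modulation (circles) reaches 2.92 at RPL35, total RNA of the overexpression (diamonds) runs down to -1.20 at the same gene, and footprints of the double modulation (crosses) stay between -0.58 and 0.73.

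The total RNA result of the double modulation changed sign with the replicate left out. Without replicate 1 the median of the 44 members was -0.10, and 10 members passed, all lower, where 2.51% of all genes passed: RPL8, RPL13, RPL18, RPL27, RPL27A, RPL35, RPL36, RPLP0, RPLP1 and RPLP2. Without replicate 2 the median was 0.72, and 32 members passed, all higher, where 15.8% of all genes passed. RPL36 changed sign as well, at -1.17 ± 0.20 (edgeR adjusted p = 0.00117) without replicate 1 and 1.30 ± 0.16 (8.95e-06) without replicate 2. In these fits the lone library of the double modulation is assumed to vary like the other groups. The members with the highest values in the full fit, RPL17 (1.31 ± 0.51, on at most 5.05 CPM), RPL29 (0.95 ± 0.67) and RPL31 (0.90 ± 0.50), did not pass. RPL36A (-0.31 ± 0.26) was the one below 0, and RPL19 (0.03) and RPL7 (0.06) were nearest to it.

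**Figure D4:**
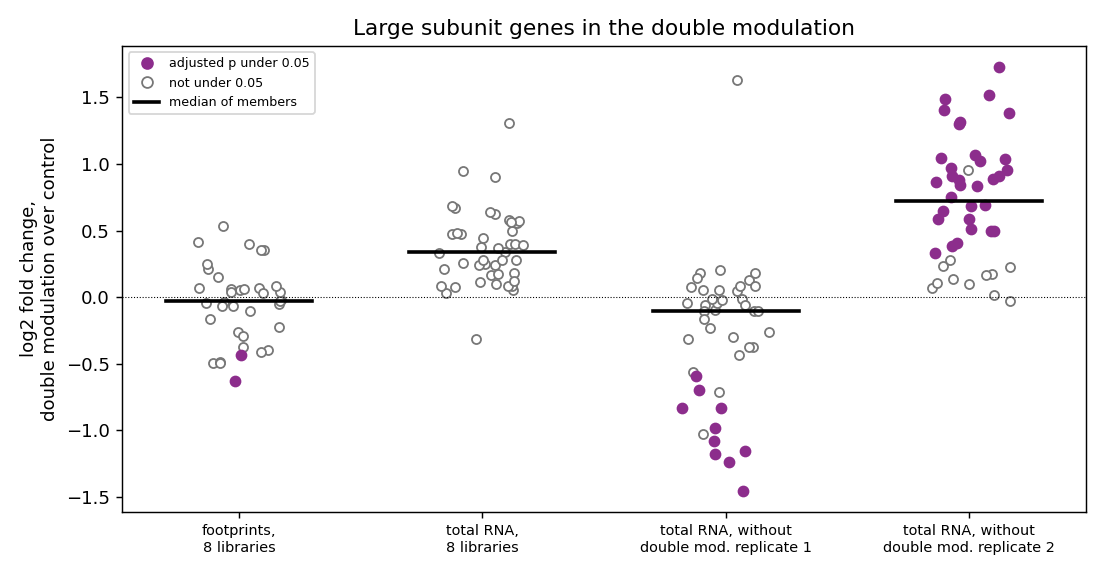
Log2 fold change of each tested member, double modulation over control (y axis), in footprints, in total RNA, and in total RNA without each replicate of the double modulation, with filled points for an edgeR adjusted p under 0.05 and a line at the median. The total RNA median is 0.34 with all libraries, -0.10 without replicate 1 and 0.72 without replicate 2.

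Neither single modulation changed the total RNA of a large subunit gene past the test. In the knockdown 0 of 44 members passed by edgeR (0.0256% of all genes) and by DESeq2, 0 had an unadjusted p under 0.05 against 6.94% of all genes, and the median was 0.06, with 35 members above 0 against 51.1%. Its highest members were RPL17 (0.94 ± 0.54), RPL7A (0.29 ± 0.15) and RPL28 (0.28 ± 0.33), and its lowest RPL36A (-0.21 ± 0.27), RPLP0 (-0.14 ± 0.60) and RPL7 (-0.11 ± 0.10). In the overexpression 0 members passed by either tool, as did 0% of all genes by edgeR, and 2 members had an unadjusted p under 0.05 against 1.99% of all genes. There 39 of 44 members were lower, against 49.5% of all genes, with a median of -0.20. RPL27 (-0.65 ± 0.66), RPLP1 (-0.57 ± 0.51) and RPL26 (-0.49 ± 0.21) were the lowest, RPL17 (0.96 ± 0.54), RPL41 (0.33 ± 0.25) and RPL36A (0.21 ± 0.26) the highest. The median was -0.34 without overexpression replicate 2 and -0.06 without replicate 1.

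With constructs pooled, total RNA of 4 members, RPL3, RPL4, RPL5 and RPL14, was higher with the Ile GAU guide without overlap, against 3.37% of all genes, although 0 of 44 passed edgeR's test (1.08% of all genes). RPL4, which lines the tunnel, had 452 and 374 CPM in the double modulation and 391 and 396 CPM in the knockdown, against 301 and 324 CPM in the overexpression and 365 and 333 CPM in control (log2 0.28 ± 0.07, edgeR adjusted p = 0.124). RPL5 had 807 and 825 CPM in the knockdown and 617 and 692 CPM in the overexpression (log2 0.26 ± 0.07, edgeR adjusted p = 0.111). RPL4 and RPL5 were the 2 members that DESeq2 called (1.4% of all genes). Both passed edgeR's test when either library of the double modulation was left out: RPL4, RPL5 and, downward, RPLP0 were called without replicate 1 (4.67% of all genes) and 35 members, all higher, without replicate 2 (15.5%). RPL3, beside the peptidyl transferase centre, gave 803 and 599.9 CPM in the double modulation and 716 and 646 CPM in the knockdown, against 516 and 578 CPM in the overexpression and 589 and 587 CPM in control (log2 0.28 ± 0.09, edgeR adjusted p = 0.245). For RPL14 the log2 fold change was 0.14 ± 0.06 (edgeR adjusted p = 0.453). In this comparison the highest values were those of RPL29 (0.77 ± 0.48), RPL35 (0.67 ± 0.50) and RPL17 (0.64 ± 0.35), and the lowest those of RPL36A (-0.36 ± 0.18), RPL19 (0.08) and RPL22 (0.09). The median of all 44 was 0.34 with 43 above 0 against 53.9% of all genes and 8 at an unadjusted p under 0.05 against 10.5%. Without double modulation replicate 1 it was 0.06. The interaction gave 0 calls among members and all genes by edgeR and 0 members by DESeq2, with 3 members at an unadjusted p under 0.05 against 2.66% of all genes and 40 of 44 above 0 against 52.8%. Its extremes were RPL27 (1.36 ± 0.90), RPL29 (1.14 ± 0.97) and RPLP0 (1.10 ± 0.84), against RPL17 (-0.59 ± 0.69), RPL36A (-0.31 ± 0.37) and RPL19 (-0.13 ± 0.15).

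The ratio of footprints to total RNA ranged widely between large subunit genes in control. Its level in a gene depends on which reads map to 1 place only, so the ranking is a description. Computed as log2 of footprint CPM + 1 over total RNA CPM + 1, its median over 37 members was 0.04, where that of the 8012 genes in both assays was 0.09. RPL31 (3.40), RPL18 (3.25) and RPL27 (3.20) were the highest, with a footprint level 10.6, 9.53 and 9.16 times the total RNA level, and lay at percentiles 97.1, 96.4 and 96.1 of all genes. RPL12 (-2.60), RPL23A (-1.92) and RPL15 (-1.78) were the lowest, at percentiles 3.15, 8.39 and 10.2. RPL5 stayed within -1.40 to -1.26 in all 4 conditions and RPL11 within 1.25 to 1.61. Each ratio came from the mean CPM of 2 libraries, so its replicates are not shown. In total RNA replicate 1 minus replicate 2 had a median log2 of 0.86 over the members in the double modulation and -0.31 in the overexpression. The ratio in these conditions carries that split. The number of named pseudogenes had a Pearson r of -0.30 with this ratio across the 37 members, given as a description only. Whether reads are lost unequally in the 2 assays was not tested.

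**Figure D5:**
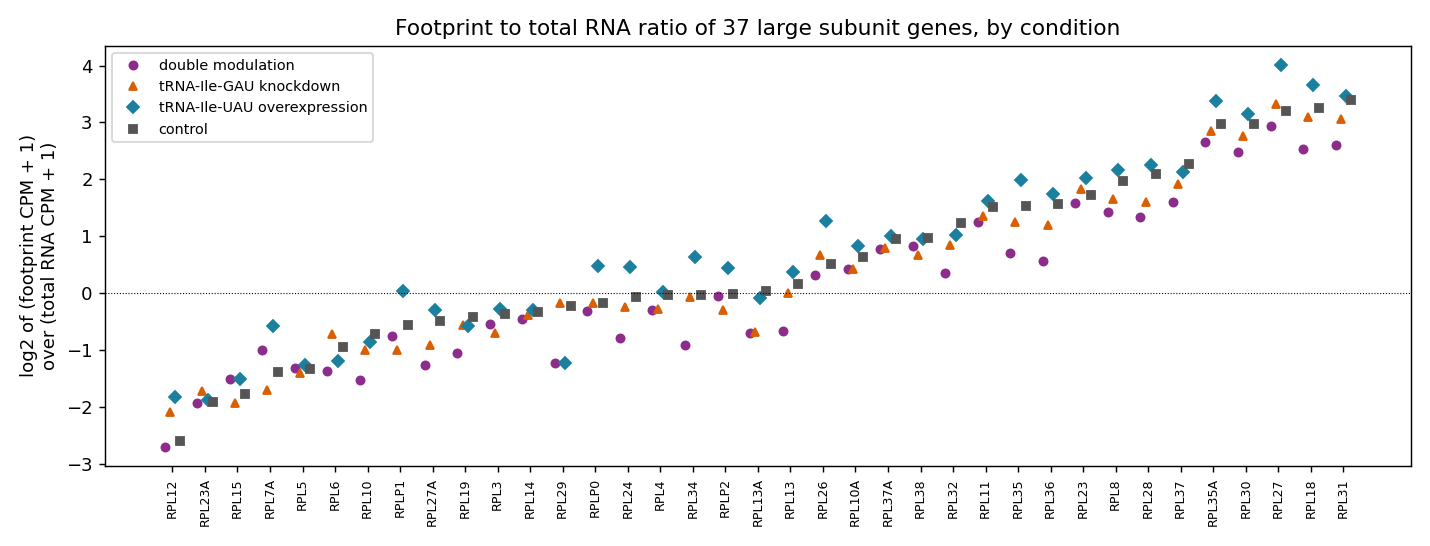
Log2 ratio of footprint CPM + 1 to total RNA CPM + 1 (y axis) for 37 members (x axis, ordered by the control value), with 1 point for each of the double modulation, the knockdown, the overexpression and control, from the mean CPM of 2 libraries. Control values run from -2.60 at RPL12 to 3.40 at RPL31, and the medians of the members are -0.31, -0.07, 0.48 and 0.04 in the order of the legend. Replicates are not shown, and in total RNA they differed by a median log2 of 0.86 in the double modulation and -0.31 in the overexpression.

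Translational efficiency, the footprint change beyond the total RNA change, passed edgeR's test for 0 of 37 members in all 5 comparisons, as it did for 0% of all 8012 genes in each, and DESeq2 called 0 members in each. In the double modulation 34 of 37 members were lower, with a median of -0.32, against 52.3% of all genes, and 4 had an unadjusted p under 0.05 against 4.14%. RPL36 (-0.97 ± 0.67), RPL29 (-0.97 ± 1.05) and RPL34 (-0.88 ± 0.44) were the lowest, RPL7A (0.38 ± 0.27), RPL15 (0.28 ± 0.22) and RPL5 (0.01 ± 0.17) the highest. RPL19 had -0.65 ± 0.18, an unadjusted edgeR p of 0.00202 and an adjusted p of 0.949. The median differed with the total RNA replicate here as well. It was 0.16 without replicate 1 of the double modulation's total RNA, with RPL27, RPLP0 and RPLP2 called higher (0.188% of all genes). It was -0.83 without replicate 2, with 21 members called lower (7.64% of all genes).

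In the knockdown the median efficiency difference was -0.21, with 30 of 37 members lower against 49.1% of all genes and 1 at an unadjusted p under 0.05 against 3.27%. RPL13A (-0.74 ± 0.26), RPL28 (-0.50 ± 0.37) and RPLP1 (-0.44 ± 0.66) were the lowest, and RPL12 (0.51 ± 0.46), RPL6 (0.20 ± 0.19) and RPL23A (0.17 ± 0.27) the highest. In the overexpression 29 of 37 were higher, against 50.2% of all genes, with a median of 0.14 and 2 at an unadjusted p under 0.05 against 2.75%. RPL7A (0.82 ± 0.28), RPL27 (0.77 ± 0.71) and RPL12 (0.76 ± 0.49) led, and RPL29 (-1.24 ± 1.41), RPL6 (-0.28 ± 0.21) and RPL32 (-0.25 ± 0.43) were at the other end. For the Ile GAU guide with constructs pooled, 34 of 37 were lower against 50.5% of all genes, with a median of -0.39 and 6 at an unadjusted p under 0.05 against 4.68%. The median was -0.08 without replicate 1 of the double modulation's total RNA and -0.63 without replicate 2. RPL13A had -0.67 ± 0.18 there, with an unadjusted edgeR p of 0.00230 and an adjusted p of 0.865. Its lowest were RPL34 (-0.78 ± 0.31), RPL35 (-0.77 ± 0.58) and RPL36 (-0.74 ± 0.48), and its highest RPL29 (0.16 ± 0.86), RPL23A (0.05 ± 0.19) and RPL6 (0.02 ± 0.14). The interaction was below 0 for 31 of 37 members against 53.8% of all genes and had 2 members at an unadjusted p under 0.05 against 2.55%. It ran from -1.46 ± 0.62 for RPL34, -1.32 ± 0.65 for RPL12 and -1.16 ± 0.97 for RPL27 to 0.23 ± 1.72 for RPL29, 0.21 ± 0.39 for RPL38 and 0.19 ± 0.32 for RPL15.

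Set beside related genes, the replicate split of total RNA was shared with the small subunit. Of 31 small subunit genes tested, 20 were over 2-fold higher in replicate 1 of the double modulation, with a median of 1.67. The 14 other TOP mRNAs, such as elongation factors, had a median of -0.14 and the 35 genes of large subunit assembly -0.21. In footprints of the double modulation, RPS3 (0.46 ± 0.11, edgeR adjusted p = 0.0102) and RPS4X (0.42 ± 0.12, 0.0255) of the small subunit and EEF1G (0.67 ± 0.155, 0.00477) of the other TOP mRNAs rose, while RPL19 and RPL36 fell. In the knockdown 23 of 26 small subunit genes were lower in footprints, with a median of -0.16, beside 28 of 37 large subunit genes with -0.13, and RPS15 (-0.53 ± 0.13, edgeR adjusted p = 0.0133) and RPS16 (-0.47 ± 0.12, 0.0308) fell. With guides pooled the tRNAIleUAU construct raised RPS18 (0.63 ± 0.12, edgeR adjusted p = 0.000349), RPS3 (0.36 ± 0.08, 0.00775) and EEF1G (0.73 ± 0.12, 1.59e-05). Of the 34 assembly genes and 5 RPL paralogs tested in footprints, 0 passed in the double modulation or with the guides compared. Of all genes 1.93% and 2.68% passed there, so for lists of this size 0 is not far from those shares. The 45 genes lie on 18 chromosomes with 0 on chromosome 7.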

How the data were processed

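The authors' deposited files hold raw read counts per gene symbol, one file per library. Per the submitters' processing notes, cutadapt 1.17, STAR 2.5.2a, HTSeq (version not given) and the build hg38 were used; per the labels, ribosomes were pelleted through sucrose from lysates with cycloheximide. The 5 HTSeq summary rows entered neither totals nor tests, and a gene with no footprint row was set to 0. Genes passing filterByExpr (minimum count 10, minimum total 15) were tested with edgeR 4.0.16 (TMM scaling, quasi-likelihood test) in R 4.3.3, with all 8 libraries of an assay in 1 fit, or all 16 for translational efficiency, and Benjamini-Hochberg adjustment over all genes tested. Calls are at an adjusted p of 0.05. The error given with a log2 fold change is its standard error in that fit. Of the contrasts, 5 were planned, and the contrast of constructs with guides pooled was added after the values were seen. DESeq2 1.42.0, other scalings, no filter, thinned footprint libraries, a replicate block and each library left out were tried. The edgeR step was tested on simulated counts. Replicates carry only numbers in the labels, so p-values cover only how far these libraries differ, and that spread may be technical. The members, lists and roles were chosen with earlier results of these data known. Genes named are those called, the 3 highest and 3 lowest members per contrast and ratio, those failing the filter, the 5S and P stalk proteins, members with groups that did not overlap or that showed the replicate split most or least, and called genes of related lists; the last kinds were picked after their values were seen. Codon content was not analysed here.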

Additional observations from a re-analysis of the deposited data

How the results depend on the processing

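Scaling, filter and tool moved the number of members called more than their direction. In footprints of the double modulation the 2 calls became 1 under DESeq2 and 1 with no filter on low counts, and with TMM off they were RPL19 and RPL27 in place of RPL19 and RPL36. In the knockdown the 1 call became 0 under DESeq2 and 0 with no filter. In the overexpression the 1 call became 0 under DESeq2, 0 with no filter and 0 with footprint libraries thinned to the shallowest. For the guides the 2 calls became 0 under DESeq2, 0 with no filter, 1 with TMM off and 1 when thinned, and for the constructs they became 1 under DESeq2 and 1 when thinned. In total RNA the 0 calls became 11 in the double modulation, 22 for the guides and 9 for the interaction with no filter. They became 2 for the guides under DESeq2, where 1.4% of all genes passed. Shares of all genes with no filter are not given here, so those counts are no result about the members in particular. The mean footprint sum of 11915 CPM was 10794 CPM without RPL8. The interaction of translational efficiency for RPL29, on few footprint reads, was -0.36 when thinned. The cause of these moves was not tested.

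Leaving out 1 library at a time, members called in footprints numbered 0 to 2 in the double modulation, 0 to 1 in the knockdown, 0 to 1 in the overexpression, 0 to 3 for the guides, 0 for the interaction and 0 to 2 for the constructs. In total RNA they numbered 0 to 32, 0, 0, 0 to 35, 0 to 29 and 0 to 15 in the same order, and for translational efficiency 0 to 21, 0, 0, 0 to 23, 0 to 11 and 0 to 8. These counts come from fits that leave 1 library in a group, and the share of all genes called is not given beside them. They are therefore no result about the members in particular. The median of the members ran from -0.10 to 0.72 in total RNA of the double modulation, from -0.14 to 0.86 for the interaction there and from -0.20 to 0.20 for the constructs. In footprints it ran from -0.09 to 0.02 in the double modulation and from -0.02 to 0.04 for the constructs. For translational efficiency it ran from -0.83 to 0.16 in the double modulation, from -0.63 to -0.08 for the guides, from -0.75 to 0.30 for the interaction, from -0.00192 to 0.42 in the overexpression and from -0.17 to 0.28 for the constructs.

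Single members changed sign in the same way. In total RNA of the double modulation RPL19 ran from -0.058 to 0.11, RPL29 from -1.03 to 1.73, RPL31 from -0.31 to 1.52 and RPL7 from -0.040 to 0.13. For the guides RPL29 ran from -0.24 to 1.14 and RPL35 from -0.42 to 1.05, for the interaction RPL27 from -0.53 to 2.09, RPL29 from -0.86 to 1.89 and RPLP0 from -0.64 to 1.83, and in the knockdown RPLP0 from -0.35 to 0.071. In footprints RPL29 ran from -0.18 to 0.82 in the knockdown and RPL10 from -0.68 to 0.064 in the overexpression. For translational efficiency of the double modulation RPL29 ran from -1.71 to 1.00, RPL36 from -1.70 to 0.74 and RPL5 from -0.13 to 0.17. For the guides RPL23A ran from -0.093 to 0.20, RPL29 from -0.20 to 1.167, RPL35 from -1.16 to 0.30, RPL36 from -1.10 to 0.13 and RPL6 from -0.036 to 0.067. For the interaction RPL15 ran from -0.051 to 0.37, RPL27 from -1.87 to 0.71, RPL29 from -0.48 to 2.24 and RPL38 from -0.10 to 0.68, and in the knockdown RPL23A ran from -0.13 to 0.42.

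Same-numbered replicates did not deviate together in footprints, where the correlation of their deviations over conditions was -0.04 to 0.06. In total RNA it was mixed, from -0.42 between the double modulation and the overexpression to 0.36 between the double modulation and the knockdown. Values of mixed sign do not decide whether the replicate numbers pair the total RNA samples. With a replicate block, footprints of the double modulation gave 4 member calls, RPL7A, RPL19, RPL27 and RPL36. The share of all genes under that setting is not given here. With 2 libraries a group, the spread rests on few values, and footprint libraries of at most 938909 gene counts and uncounted multiply aligned reads limit what could be detected.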

Other observations

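Rows named as RPL pseudogenes, 20 in all, held 0 footprint counts in every library. In total RNA they summed to 41.5 and 41.9 CPM in the double modulation, 44.1 and 48.9 CPM in the knockdown and 46.8 and 46.3 CPM in the overexpression, against 44.98 and 47.86 CPM in control. These sums rest on 113 to 226 counts a library. Both double modulation libraries were the lowest, by a few CPM, and lay close together, unlike the summed large subunit genes of the same libraries. That contrast rests largely on RPL23A pseudogenes. RPL23AP53 held 596 counts over all total RNA libraries, and RPL23AP64 was next with 147. RPL23A itself differed only 1.09-fold between the double modulation replicates in total RNA.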
